A study of Mus musculus with 12 samples.

Results

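Serpinb1a, Serpinb6a, Serpinb6b and Serpinb9 are 4 mouse clade B serpins, and their transcript levels were followed across interleukin 17-type and ROR- lymphocytes of the BALB/c and B6 strains. They were taken as the probe sets whose gene symbol on the platform annotation is exactly one of these names. Each of the 4 had 1 such probe set, out of 22180 genes with a named probe set, and each passed the filter on dim genes that left 16667 genes for testing. The members were chosen by measured values of these same arrays: Serpinb1a was selected on being higher in type 17 cells than in ROR- cells, and Serpinb6b on its difference between the strains. Values of the members in those comparisons, including the strain difference of the cell-type difference for Serpinb6b, are therefore given as a description, with no test.

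Serpins are protease inhibitors that present a reactive centre loop as bait. The protease cuts the loop and is trapped in a covalent complex, so that each inhibitor molecule is used up with its target. Clade B serpins lack a classical secretion signal and mostly act inside the cell, where they are known to protect leukocytes from their own granule proteases. Serpinb1a is the mouse counterpart of human SERPINB1, the neutrophil elastase inhibitor, which also blocks cathepsin G and proteinase 3. Serpinb6a is a counterpart of human SERPINB6 and inhibits cathepsin G, Serpinb6b is a rodent paralogue that inhibits mouse granzyme A, and Serpinb9 inhibits granzyme B and shields cytotoxic lymphocytes. In mice Serpinb1a is also known as a marker gene of interleukin 17-producing gamma-delta T cells.

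The 12 Affymetrix whole-transcript arrays fall into 5 groups: iNKT17 cells of BALB/c mice (3 arrays), iNKT17 cells of B6 mice (2), gamma-delta 17 cells of B6 mice (2), ROR- cells of BALB/c mice (3) and ROR- cells of B6 mice (2). Invariant natural killer T (iNKT) cells are T cells that recognise lipids with a nearly fixed receptor, iNKT17 is their interleukin 17-producing subset, and gamma-delta 17 cells are interleukin 17-producing T cells of the other receptor lineage; these 3 groups are called type 17 below. The labels name strain, cell phenotype and replicate number, and give no transgene, treatment, age, organ or sorting gate, nor whether replicates came from separate mice. The extraction text speaks of frozen tissue although the labels name cells. P-values therefore reflect spread among the arrays alone, and that spread may be technical. Levels are the log2 values the authors deposited. Differences are limma estimates in log2 units with their standard error (SE), and a gene was called at a Benjamini-Hochberg adjusted p under 0.05 over all 16667 genes tested. A level of 3.45, the 30th percentile of all named probe sets, is called the dim level; all 4 members lay above it on all 12 arrays.

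The cell labels were checked against marker genes. Over the 5 measured type 17 markers (Il17a, Il23r, Ccr6, Il1r1 and Sdc1, of 6 listed) the mean level of an array was 8.14 to 8.51 in BALB/c iNKT17 cells, 7.92 to 8.31 in B6 iNKT17 cells, 8.59 to 9.08 in gamma-delta 17 cells, 4.42 to 6.02 in BALB/c ROR- cells and 4.37 to 4.73 in B6 ROR- cells. Cd163l1, a scavenger receptor gene of gamma-delta 17 cells, averaged 10.24 in the gamma-delta 17 group and at most 6.88 in the other groups. Of the other measured gamma-delta markers, Sox13 was also highest there (7.16, at most 6.625 elsewhere). 5830411N06Rik was not, at 7.97 against 8.32 in BALB/c iNKT17 cells. The iNKT marker Zbtb16 did not single out iNKT17 cells. It averaged 8.99 in BALB/c iNKT17, 8.01 in B6 iNKT17, 7.64 in gamma-delta 17, 9.10 in BALB/c ROR- and 8.63 in B6 ROR- cells. A pair of arrays stood apart. Replicate 2 of BALB/c ROR- had the highest type 17 mean of its group, 6.02, with Il23r at 7.0 against 3.05 and 3.37 on the others. Replicate 1 of gamma-delta 17 carried neutrophil transcripts: S100a8 read 9.30 and S100a9 9.0 there, against at most 2.44 and 3.98 on the other 11 arrays, and Ngp, Camp and the monocyte and neutrophil gene Lyz2 were also high (6.25, 5.36 and 6.86). The mean of all 10 measured neutrophil markers was 5.41 on that array, with 8 of the 10 above the dim level, and 3.24 to 3.41 on the other 11 arrays, with 3 to 5 above it. Not every marker was raised. Ly6g (3.92, and 3.38 to 4.13 on the other 11 arrays) and Retnlg (2.92, and 2.64 to 3.32) lay within the range of the others. Mmp8 (3.415, at most 3.35 elsewhere) was barely above it. The type 17 mean of gamma-delta 17 replicate 1, 8.59, was that of its group's lower array. The mean of the 3 measured gamma-delta markers was 7.86 there and 9.05 on replicate 2.

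All 4 genes lie on mouse chromosome 13 in the RefSeq table of assembly GRCm38.p6. The run taken from Serpinb1a to Serpinb6a holds 16 protein-coding genes, all clade B serpins, and genes beyond its ends were not examined. Within it Serpinb6b and Serpinb9 are next to each other, with 0 protein-coding genes between them. Of the 4 members, 3 have promoter entries in the RefSeq table used here. The 250 bases before the annotated start are shown for this neighbouring pair, whose levels were both lower in type 17 than in ROR- cells of B6 mice, and for Serpinb6a, whose level was higher in type 17 cells of both strains. They are at chr13:32965011-32965260 (plus strand), chr13:33004291-33004540 (plus strand) and chr13:34002795-34003044 (minus strand), the last being 1 of 2 entries for its gene. Capitals mark a match to one of 3 motifs searched on both strands.
Serpinb6b: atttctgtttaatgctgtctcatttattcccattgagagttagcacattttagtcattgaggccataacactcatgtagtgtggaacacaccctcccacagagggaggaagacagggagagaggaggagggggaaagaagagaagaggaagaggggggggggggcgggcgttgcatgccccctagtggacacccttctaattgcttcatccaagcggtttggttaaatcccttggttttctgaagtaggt
Serpinb9: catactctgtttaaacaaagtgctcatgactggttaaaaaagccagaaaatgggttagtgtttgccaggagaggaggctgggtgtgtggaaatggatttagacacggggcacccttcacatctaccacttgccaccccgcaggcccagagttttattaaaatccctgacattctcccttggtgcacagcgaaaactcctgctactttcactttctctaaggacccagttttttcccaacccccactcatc
Serpinb6a: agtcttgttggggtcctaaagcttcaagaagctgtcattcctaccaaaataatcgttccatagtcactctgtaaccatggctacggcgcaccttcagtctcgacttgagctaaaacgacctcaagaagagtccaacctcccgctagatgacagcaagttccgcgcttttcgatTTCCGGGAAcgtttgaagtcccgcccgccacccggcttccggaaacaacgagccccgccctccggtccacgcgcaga
The motifs were AGGTCA, the core bound by many nuclear receptors; AGGTGTGA, a T-box core; and TTCNNNGAA, the palindrome bound by STAT factors. The Serpinb6a window holds 1 STAT palindrome, starting 77 bases before the annotated start and overlapping no match to another motif, and the other 2 windows hold no match to any of the 3. The second Serpinb6a entry, at chr13:33936084-33936333 (minus strand) and not shown, holds no match either. Among all 32851 promoter windows of that length, 14% hold the nuclear receptor core, 1.12% the T-box core and 7.02% the STAT palindrome. These matches describe letters only.

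Serpinb1a separated type 17 from ROR- cells in both strains by the widest margin of the 4 genes. Its level was 9.58, 9.34 and 9.73 in BALB/c iNKT17 cells against 4.53, 6.26 and 5.08 in BALB/c ROR- cells. In B6 mice it was 9.58 and 9.18 in iNKT17 cells and 9.53 and 9.72 in gamma-delta 17 cells, against 4.04 and 5.12 in ROR- cells. All 7 type 17 arrays lay within 9.18 to 9.73, and the lowest of them was 2.91 log2 units above the highest of the 5 ROR- arrays, which spread from 4.04 to 6.26.

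**Figure D1:**
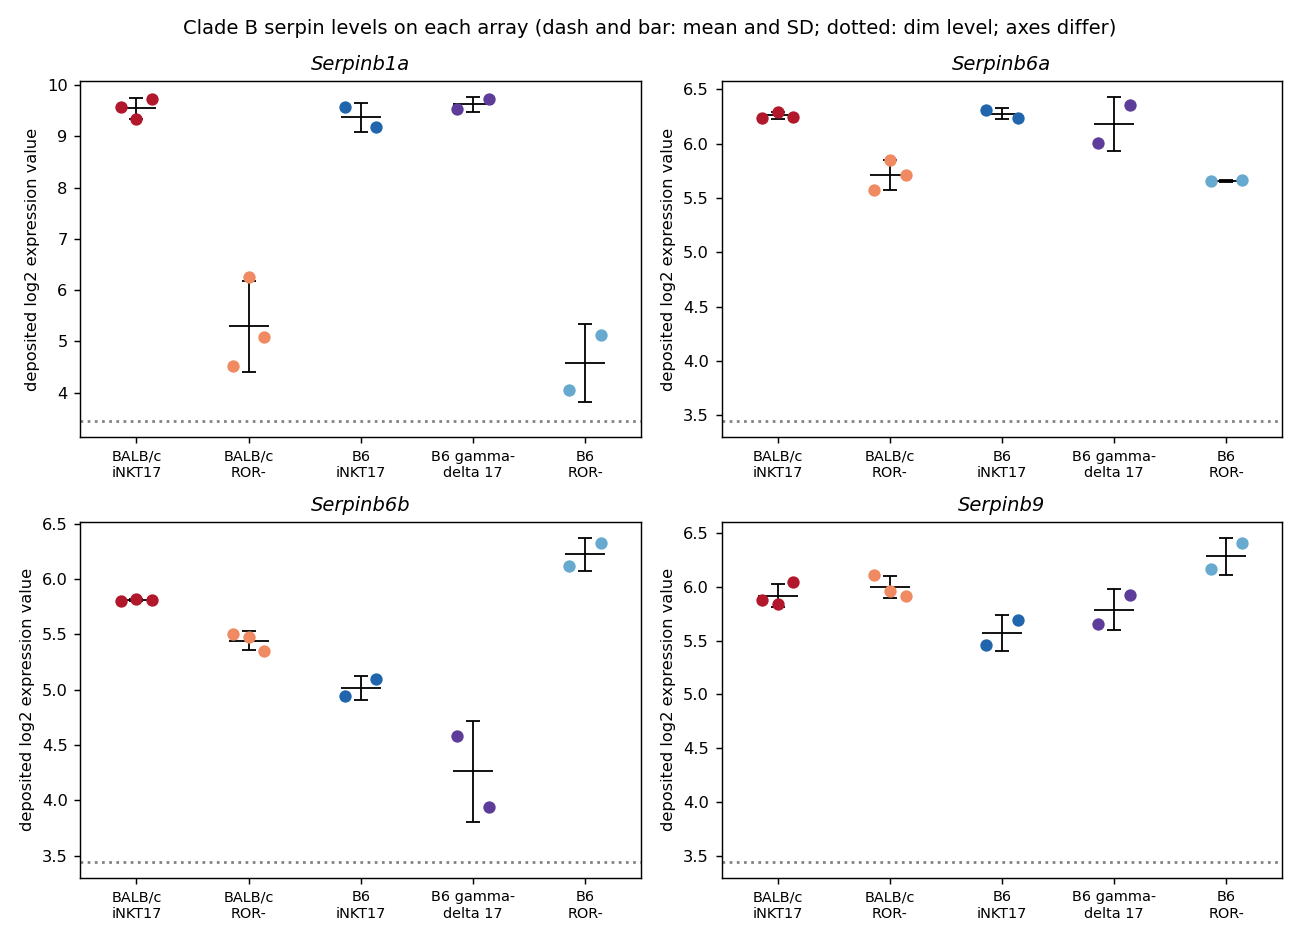
Deposited log2 level (vertical axes, which differ between panels) of the 4 clade B serpins on each of the 12 arrays (points) by group (horizontal axes), with the group mean and SD as dash and bar and the dim level of 3.45 as a dotted line. Serpinb1a sits between 9.18 and 9.73 on the type 17 arrays and between 4.04 and 6.26 on the ROR- arrays; Serpinb6b is highest in B6 ROR- cells and lowest in gamma-delta 17 cells.

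As differences, Serpinb1a was higher in iNKT17 than in ROR- cells by 4.26 ± 0.38 (SE) in BALB/c, a 19.1-fold difference, and by 4.80 ± 0.46 in B6, or 27.8-fold. Gamma-delta 17 cells of B6 exceeded the same B6 ROR- arrays by 5.05 ± 0.46, or 33.0-fold; the 2 B6 comparisons share their controls. Arrays of the 2 groups did not overlap for 3 of the 4 members in BALB/c iNKT17 against ROR- (22.2% of all genes tested did so), for 4 of 4 in B6 iNKT17 against ROR- (46.4%) and for 4 of 4 in gamma-delta 17 against ROR- (48.5%); these comparisons chose the members and nothing is read from the counts. In bulk RNA, fewer cells with the transcript and less transcript per cell cannot be told apart.

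The spread of Serpinb1a among ROR- arrays ran beside their type 17 marker level. BALB/c ROR- replicate 2, the array with the highest type 17 mean of the ROR- arrays (6.02), also had the highest Serpinb1a (6.26), and B6 ROR- replicate 1 was lowest in both (4.37 and 4.04). The other 3 ROR- arrays had type 17 means of 4.42, 4.73 and 4.82 and Serpinb1a levels of 4.53, 5.12 and 5.08. Without BALB/c ROR- replicate 2 the BALB/c difference in Serpinb1a was 4.74. The part of cells with type 17 transcripts in the ROR- level of Serpinb1a was not tested.

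Serpinb1a is also a neutrophil gene, and 1 gamma-delta 17 array carried neutrophil transcripts. Serpinb1a read 9.53 on gamma-delta 17 replicate 1 and 9.72 on replicate 2, where S100a8 was 2.29. Without replicate 1 gamma-delta 17 cells exceeded ROR- cells by 5.15. The 5 iNKT17 arrays, with neutrophil means of 3.30 to 3.39, had Serpinb1a levels of 9.18 to 9.73. The part of neutrophils in the gamma-delta 17 level was not tested.

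**Figure D2:**
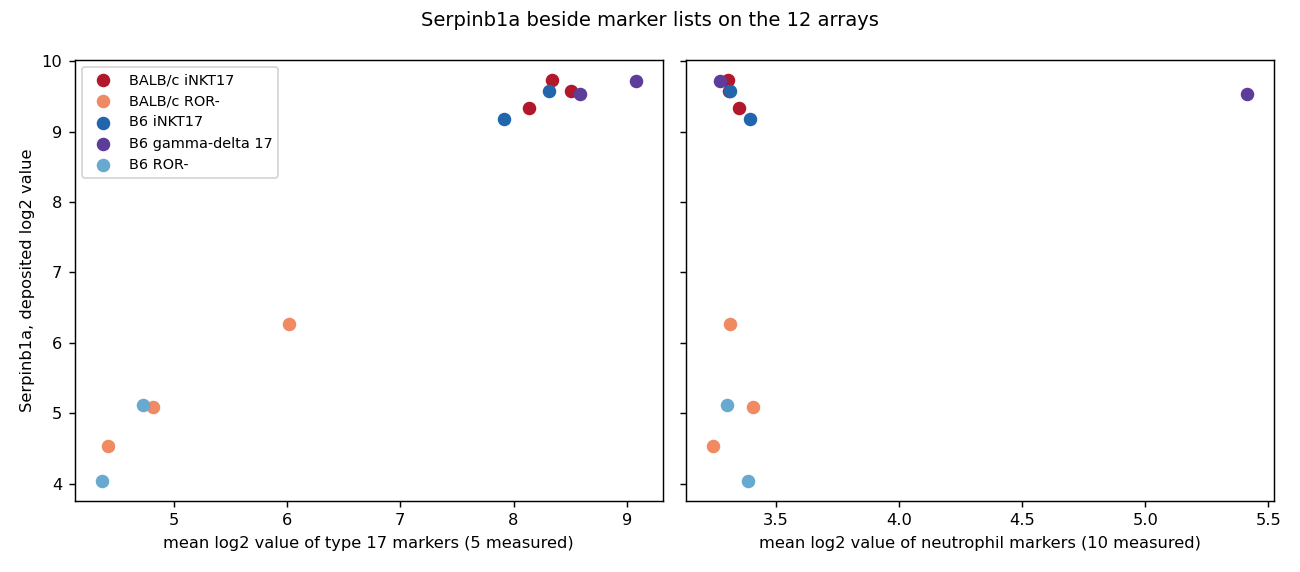
Serpinb1a level (vertical axis, log2) on each of the 12 arrays against the mean log2 level of the 5 measured type 17 markers (left) and the 10 measured neutrophil markers (right), coloured by group. Type 17 and ROR- arrays form separate clusters on the left, with BALB/c ROR- replicate 2 at 6.02 and 6.26 between them; on the right gamma-delta 17 replicate 1 stands alone at 5.41 with a Serpinb1a level like that of the other type 17 arrays.

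Among type 17 cells no difference in Serpinb1a passed. B6 iNKT17 cells differed from B6 gamma-delta 17 cells by -0.25 ± 0.46 (limma adjusted p = 0.905), with a 95% interval of -1.26 to 0.77, so that differences of up to about that size in either direction are within the error. The cell-type difference in BALB/c minus that in B6 was -0.54 ± 0.60 (limma adjusted p = 0.999; 95% interval -1.85 to 0.77), and it ranged from -1.08 without B6 ROR- replicate 2 to 0.0 without B6 ROR- replicate 1. Between strains, Serpinb1a in BALB/c minus B6 iNKT17 cells was 0.17 ± 0.42, and it was -0.03 without B6 iNKT17 replicate 2 and 0.37 without replicate 1. It was 0.71 ± 0.42 higher in BALB/c than in B6 ROR- cells, and this ROR- difference was 0.22 without BALB/c ROR- replicate 2, 0.17 without B6 ROR- replicate 1 and 1.25 without B6 ROR- replicate 2. By mean level the order was gamma-delta 17 (9.63 ± 0.14, SD, n = 2), BALB/c iNKT17 (9.55 ± 0.20, n = 3), B6 iNKT17 (9.38 ± 0.28, n = 2), BALB/c ROR- (5.29 ± 0.89, n = 3) and B6 ROR- (4.58 ± 0.76, n = 2). Arrays of neighbouring groups in this order overlapped except between B6 iNKT17 and BALB/c ROR-.

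Serpinb6a followed the same division on a much smaller scale. It read 6.24, 6.30 and 6.25 in BALB/c iNKT17 cells against 5.57, 5.85 and 5.71 in BALB/c ROR- cells. In B6 it read 6.31 and 6.24 in iNKT17 cells and 6.01 and 6.36 in gamma-delta 17 cells, against 5.65 and 5.67 in ROR- cells. All 7 type 17 arrays were above all 5 ROR- arrays, by a margin of 0.16. The differences from ROR- cells were 0.55 ± 0.12 in BALB/c iNKT17, 0.62 ± 0.145 in B6 iNKT17 and 0.52 ± 0.145 in gamma-delta 17 cells, or 1.46-, 1.53- and 1.44-fold. The gamma-delta 17 value was 0.70 without replicate 1 of that group, the array with neutrophil transcripts, and 0.35 without replicate 2. BALB/c minus B6 was -0.02 ± 0.13 in iNKT17 cells and 0.05 ± 0.13 in ROR- cells. B6 iNKT17 minus gamma-delta 17 was 0.10 ± 0.145 (limma adjusted p = 0.880; 95% interval -0.22 to 0.41), which turned to -0.08 without gamma-delta 17 replicate 1. By mean level the 3 type 17 groups (6.28 in B6 iNKT17, 6.26 in BALB/c iNKT17 and 6.18 in gamma-delta 17 cells) overlapped, as did both ROR- groups (5.71 for BALB/c, 5.66 for B6). The BALB/c cell-type difference minus the B6 one was -0.07 ± 0.19 (limma adjusted p = 0.999; 95% interval -0.48 to 0.34).

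Serpinb6b differed between cell types in opposite directions in the 2 strains. In BALB/c it read 5.80, 5.82 and 5.81 in iNKT17 cells against 5.50, 5.48 and 5.35 in ROR- cells. In B6 it read 4.94 and 5.10 in iNKT17 cells and 4.59 and 3.94 in gamma-delta 17 cells, against 6.12 and 6.33 in ROR- cells. Every BALB/c iNKT17 array was above every BALB/c ROR- array, and every type 17 array of B6 was below every B6 ROR- array.

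The iNKT17 minus ROR- difference of Serpinb6b was 0.36 ± 0.15 in BALB/c and -1.21 ± 0.185 in the B6 mice, with gamma-delta 17 minus ROR- at -1.96 ± 0.185, a 3.89-fold lower level. BALB/c minus B6 was 0.79 ± 0.17 in iNKT17 cells and -0.78 ± 0.17 in ROR- cells, so the strain with the higher level depended on the cell type. The BALB/c cell-type difference minus the B6 one came to 1.57 ± 0.24, and to between 1.47 and 1.68 when each array was left out in turn. In these strain comparisons 2 of 4 members, Serpinb6b and Serpinb9, had arrays that did not overlap, in iNKT17 cells (31.7% of all genes tested) and in ROR- cells (26.3%); both comparisons chose Serpinb6b, and nothing is read from the counts. By mean level the order was B6 ROR- (6.22 ± 0.15, SD, n = 2), BALB/c iNKT17 (5.81 ± 0.01, n = 3), BALB/c ROR- (5.45 ± 0.08, n = 3), B6 iNKT17 (5.02 ± 0.11, n = 2) and gamma-delta 17 (4.26 ± 0.46, n = 2), with no overlap of arrays between neighbours.

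The comparison of the type 17 lineages in B6 was not used in choosing Serpinb6b. B6 iNKT17 cells were above gamma-delta 17 cells by 0.76 ± 0.185, or 1.69-fold, with a 95% interval of 0.35 to 1.16 and both iNKT17 arrays above both gamma-delta 17 arrays. The difference did not pass the correction over all genes (limma adjusted p = 0.204). Over the alternatives its adjusted p ran from 0.02 to 0.984. Without gamma-delta 17 replicate 1, the array with neutrophil transcripts, it was 1.08 (limma adjusted p = 0.02, with the lone array assumed to vary like the others), and without replicate 2 it was 0.43. In this comparison 0 of 4 members passed limma's threshold, beside 0.168% of all genes, and 1 of 4, Serpinb6b, had an unadjusted p under 0.05. Arrays of the 2 groups did not overlap for 1 of 4 members, against 41% of all genes.

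**Figure D3:**
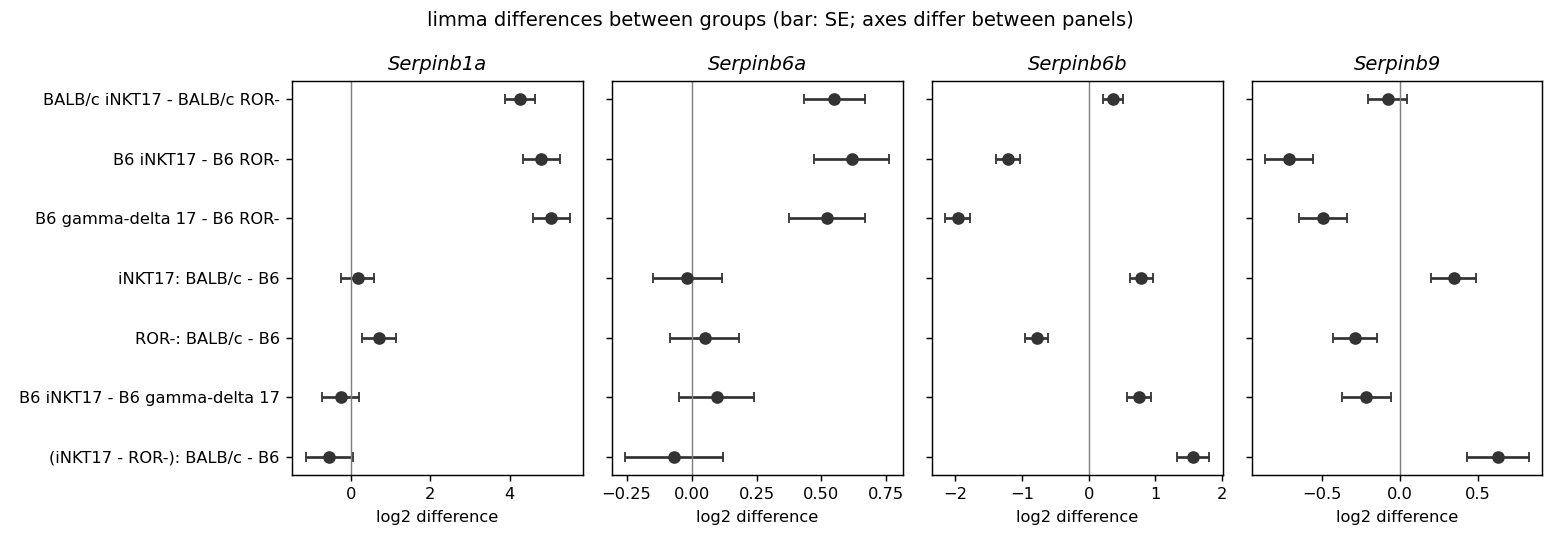
limma differences (points, log2 units, horizontal axes that differ between panels) with SE bars for the 4 clade B serpins in 7 comparisons, each named as the first group minus the second. Serpinb1a and Serpinb6a lie above 0 in all 3 comparisons of type 17 with ROR- cells; Serpinb6b is at 0.36 in BALB/c and at -1.21 and -1.96 in B6, and its strain difference is 0.79 in iNKT17 cells and -0.78 in ROR- cells.

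Serpinb9, the gene next to Serpinb6b, varied less. It read 5.87, 5.84 and 6.04 in BALB/c iNKT17 cells against 6.11, 5.96 and 5.91 in BALB/c ROR- cells, which overlap. In B6 it read 5.46 and 5.69 in iNKT17 cells and 5.65 and 5.92 in gamma-delta 17 cells, against 6.16 and 6.40 in ROR- cells. The B6 type 17 arrays all lay below both B6 ROR- arrays. The differences from ROR- cells were -0.08 ± 0.13 in BALB/c iNKT17, -0.71 ± 0.155 in B6 iNKT17 and -0.49 ± 0.155 in gamma-delta 17 cells, the last being -0.36 without gamma-delta 17 replicate 1. By mean level the order was B6 ROR- (6.28 ± 0.17, SD, n = 2), BALB/c ROR- (6.0 ± 0.10, n = 3), BALB/c iNKT17 (5.92 ± 0.11, n = 3), gamma-delta 17 (5.79 ± 0.19, n = 2) and B6 iNKT17 (5.57 ± 0.17, n = 2), and only the first of these neighbours did not overlap.

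BALB/c minus B6 for Serpinb9 was 0.34 ± 0.14 in iNKT17 cells and -0.29 ± 0.14 in ROR- cells; the ROR- value was -0.41 without B6 ROR- replicate 1 and -0.17 without replicate 2. These differences have the signs of those of Serpinb6b and are smaller. The cell-type difference in BALB/c minus that in B6, tested for Serpinb9, was 0.63 ± 0.20 with a 95% interval of 0.19 to 1.07, but did not pass the correction (limma adjusted p = 0.812; 0.55 to 1 over the alternatives). Serpinb6b was left out of this count because it was chosen on its strain difference. Of the 3 members tested in this way 0 passed, beside 0.084% of all genes, and of these Serpinb9 alone had an unadjusted p under 0.05. B6 iNKT17 minus gamma-delta 17 was -0.21 ± 0.155 (limma adjusted p = 0.738; 95% interval -0.56 to 0.13).

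Markers of type 1 and natural killer cells (Tbx21, Ifng, Klrd1, Il2rb, Ncr1 and Klrb1c, all 6 measured) also separated type 17 from ROR- arrays by their mean. Their mean level on an array was 4.88 to 5.13 in BALB/c iNKT17, 5.07 to 5.12 in B6 iNKT17 and 5.05 to 5.81 in gamma-delta 17 cells, against 7.10 to 7.84 in BALB/c ROR- and 8.03 to 8.12 in B6 ROR- cells. Serpinb6b and Serpinb9, inhibitors of granzymes that such cells carry, were highest in B6 ROR- cells, where the mean of these markers was highest too. Between the ROR- groups the single markers went both ways. Klrb1c averaged 7.82 in B6 and 5.57 in BALB/c, and Il2rb 10.965 and 10.35. Tbx21 (7.73 and 7.48) and Ifng (7.61 and 7.52) differed less, and Klrd1 (9.995 and 10.22) and Ncr1 (4.34 and 4.38) were higher in BALB/c. In BALB/c the mean of the markers was again lower in iNKT17 than in ROR- cells. Serpinb6b averaged 5.81 in iNKT17 and 5.45 in ROR- cells there, the opposite direction, and the groups overlapped for Serpinb9. Of the markers, Klrb1c alone overlapped between these BALB/c groups (5.90, 4.73 and 5.30 in iNKT17, 5.68, 5.47 and 5.57 in ROR- cells). In B6, Ncr1 overlapped between gamma-delta 17 (4.31 and 4.175) and ROR- cells (4.74 and 3.94). Within the gamma-delta 17 group the higher mean of these markers, 5.81, was that of replicate 1, the array with neutrophil transcripts. Klrd1 read 6.03 on it and 3.69 on replicate 2. The part of type 1 and natural killer cells in the levels of Serpinb6b and Serpinb9 was not tested.

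The rest of the family was mostly too dim to test. Of the 21 other clade B serpins with a named probe set, 17 were too dim to test and never exceeded 3.48 on any array. The 4 that were tested were Serpinb1c, Serpinb6c, Serpinb9b and Serpinb9f, at levels between 3.41 and 4.79. In each of the 7 comparisons 0 of these 4 passed limma's threshold, and 1, Serpinb1c in BALB/c iNKT17 against ROR- cells, had an unadjusted p under 0.05. At most 6.97% of all genes were called in any comparison, so 0 of 4 is near that share and nothing is read from it. Serpinb1c, next to Serpinb1a in the chromosome 13 run, read 4.51, 4.79 and 4.61 in BALB/c iNKT17 cells against 3.70, 3.77 and 4.62 in BALB/c ROR- cells, where replicate 3 overlaps. Its difference was 0.61 ± 0.23 (limma adjusted p = 0.176), and 0.90 without BALB/c ROR- replicate 3 (limma adjusted p = 0.0144). In B6 iNKT17 cells Serpinb1c differed from ROR- cells by -0.02 ± 0.28.

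The median difference of these 4 other serpins was 0.02 in BALB/c iNKT17 against ROR- cells, -0.11 in B6 iNKT17 against ROR- cells and -0.02 in gamma-delta 17 against ROR- cells, where the median of all genes tested was 0.004, -0.005 and 0.011. The share of all genes called in these comparisons was 6.97%, 5.99% and 6.02%, and it was 1.48% between the strains in iNKT17 cells and 1.22% in ROR- cells. Serpinb1b, the other paralogue of Serpinb1a, stayed under the dim level on all 12 arrays. Cross-hybridisation between paralogues was not tested. Of 29 serpins of other clades 13 were tested, and 0 passed limma's threshold in any of the 7 comparisons, with 0 to 2 at an unadjusted p under 0.05 in each.

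**Figure D4:**
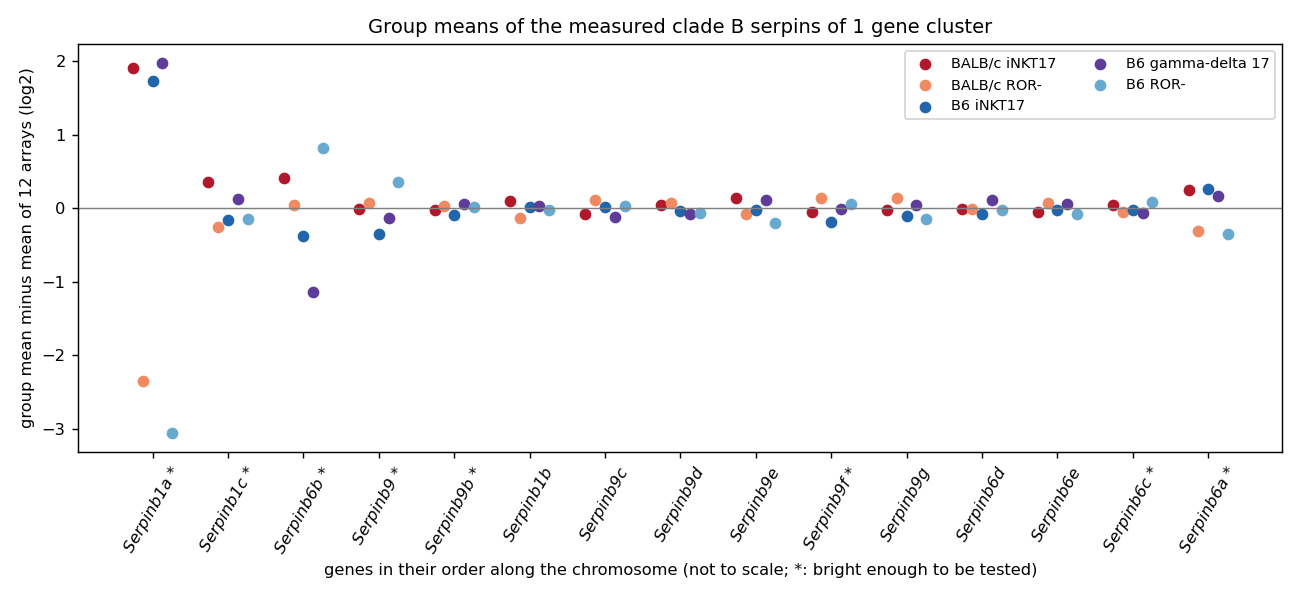
Group mean minus the mean of all 12 arrays (vertical axis, log2) for the 15 measured clade B serpins of the chromosome 13 run, in gene order (horizontal axis, not to scale), coloured by group; an asterisk marks a gene bright enough to be tested. Serpinb1a spans by far the widest range, Serpinb6b separates the groups in another order, and the dim genes between Serpinb9 and Serpinb6a stay near 0.

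Proteases were listed with the 4 inhibitors. They were the targets named above and the cathepsins Ctsb and Ctsl, which are not assigned to any member here. Gzma, granzyme A, the target of Serpinb6b, was lower in type 17 cells. It read 3.48, 3.11 and 2.58 in BALB/c iNKT17 cells against 7.44, 4.46 and 5.0 in BALB/c ROR- cells, and in B6 2.64 and 3.36 in iNKT17 cells and 4.32 and 3.03 in gamma-delta 17 cells against 6.86 and 8.80 in ROR- cells. The differences were -2.58 ± 0.70 in BALB/c (limma adjusted p = 0.0498), -4.83 ± 0.86 in B6 iNKT17 (0.00533) and -4.16 ± 0.86 in gamma-delta 17 cells (0.0134). Means of both iNKT17 groups lie below the dim level, so these sizes are uncertain. The BALB/c call was lost under most alternatives (limma adjusted p up to 0.17). The B6 iNKT17 call was lost without the second ROR- array (0.0585) or the first iNKT17 array (0.0517), and the gamma-delta 17 call without its replicate 2 (0.11), without B6 ROR- replicate 2 (0.139) or with trended, robust variances (0.0576). In B6, Gzma and Serpinb6b were thus both lower in type 17 cells, while in BALB/c Serpinb6b was higher where Gzma was lower.

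Gzmb, granzyme B, the target of Serpinb9, did not pass in any comparison. It read 10.30, 11.16 and 10.71 in BALB/c iNKT17 cells against 11.03, 9.86 and 9.79 in BALB/c ROR- cells, and 11.11 and 11.37 in B6 iNKT17 cells and 10.46 and 9.56 in gamma-delta 17 cells against 11.12 and 11.36 in B6 ROR- cells. The neutrophil proteases that Serpinb1a inhibits were low. Elane, neutrophil elastase, read 5.0 on gamma-delta 17 replicate 1 and 3.75 on replicate 2. It averaged 3.71 in BALB/c iNKT17 and 3.80 in B6 iNKT17 cells, against 3.79 in BALB/c ROR- and 3.83 in B6 ROR- cells. Prtn3, proteinase 3, ranged from 4.0 to 5.06 with the highest value on gamma-delta 17 replicate 1, and Ctsg, cathepsin G, was too dim to test and passed the dim level on 1 array, that same one (3.74).

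Of the cysteine cathepsins listed, Ctsb, cathepsin B, was lower in gamma-delta 17 cells (7.59 and 7.76) than in B6 ROR- cells (8.53 and 8.58), by -0.88 ± 0.18 (limma adjusted p = 0.0132), a call lost without gamma-delta 17 replicate 1 (0.092) or either B6 ROR- array (0.0732 and 0.089). Ctsl, cathepsin L, read 7.96, 6.91 and 6.96 in BALB/c iNKT17 cells against 5.79, 6.92 and 6.23 in BALB/c ROR- cells, and did not pass (0.97 ± 0.30, limma adjusted p = 0.0851). Of the 6 listed proteases tested, 1 was lower in BALB/c iNKT17, 1 in B6 iNKT17 and 2 in gamma-delta 17 cells than in ROR- cells, and 0 were higher. Over all genes 2.91%, 3.16% and 3.41% were called lower in these comparisons, and 4.06%, 2.83% and 2.61% higher. Among 7 tested inhibitors outside the serpins only Cstb, the cytosolic cathepsin inhibitor cystatin B, was called in these comparisons. It was higher in BALB/c iNKT17 (9.67, 9.83 and 9.80) than in BALB/c ROR- cells (9.17, 9.19 and 8.95), by 0.66 ± 0.11 (limma adjusted p = 0.00327), and in B6 iNKT17 (9.87 and 9.85) than in B6 ROR- cells (9.23 and 9.41), by 0.54 ± 0.14 (limma adjusted p = 0.0396; lost under 10 of 21 alternatives, with 0.3 without B6 ROR- replicate 1). In gamma-delta 17 cells it was 0.41 ± 0.14 above ROR- cells and did not pass (limma adjusted p = 0.122).

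The genes whose levels over the 12 arrays were most like those of each member were found by Pearson's r among 14886 genes, as a description. For Serpinb1a they were Mtss1 (r = 0.993), Igsf11 (0.989), the cytokine receptor gene Il23r (0.989), the interleukin 1 receptor gene Il1r1 (0.988) and the carboxypeptidase gene Cpd (0.988). For Serpinb6a they were the selenium carrier gene Selenop (0.980), Adam12 (0.978), the syntaxin gene Stx7 (0.975), the aquaporin gene Aqp3 (0.975) and the cadherin gene Cdh10 (0.974), and Serpinb6a correlated with Serpinb1a at 0.955. In both lists the 12 points fall into a type 17 and a ROR- cluster, so r mainly reflects that division.

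Serpinb6b was matched less closely, by Fam185a (0.931), Ndfip1 (0.906), the kinase gene Map2k6 (0.889), Paxbp1 (0.888) and the costimulatory receptor gene Cd28 (0.886). Cd28 averaged 8.21 in BALB/c iNKT17, 6.81 in B6 iNKT17, 4.97 in gamma-delta 17, 8.50 in BALB/c ROR- and 8.26 in B6 ROR- cells. As for Serpinb6b, gamma-delta 17 was its lowest group and B6 iNKT17 the next. Unlike Serpinb6b, Cd28 was lower in BALB/c iNKT17 than in BALB/c ROR- cells. Its rank correlation with Serpinb6b (Spearman's rho) was 0.476, against 0.748 to 0.937 for the other genes of this list. For Serpinb9 the genes were Dus3l (0.923), the myosin gene Myo7a (0.896), Plcl1 (0.894), Ccar2 (0.868) and the DNA repair gene Xrcc5 (0.858). Serpinb6b and Serpinb9, the neighbouring pair, correlated with each other at 0.611.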

How the data were processed

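The authors deposited 1 table of log2 values for 41345 probe sets on 12 arrays, and the submitters' processing notes name the R package oligo; no label or header used here states its version, background correction, summarisation or normalization. Base 2 is inferred from the range of the values. Array medians lay between 4.10 and 4.30, and the values were used as deposited. The platform annotation gave 23521 probe sets 1 gene symbol, 1814 several and 16010 none; only the first were named, the brightest per gene by its mean over the arrays. Genes with at least 2 arrays above the 30th percentile (3.45) were tested.

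A group-means model over all 12 arrays was fitted with limma 3.58.1 in R 4.3.3 (lmFit and eBayes, 7 residual and 4.5 prior degrees of freedom) with Benjamini-Hochberg adjustment over 16667 genes, and the fit was tested on simulated data. The members, lists and comparisons were chosen with earlier results of these data known. Named genes were the members, listed proteases, other serpins or inhibitors past the threshold (at most 4 per comparison), and the 5 genes most correlated with each member; Serpinb1c was named after its values were seen. Arrays of 1 group correlated at 0.984 to 0.993 across genes. The number of arrays limits the precision. Alternatives were median centring, quantile normalization, other dim filters, eBayes with trend and robust fitting, array weights, only the arrays compared, a replicate block, the mean of a gene's probe sets, and leaving out each array.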

Additional observations from a re-analysis of the deposited data

Results flagged for a closer look

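The cell-type difference of Serpinb6b ran in opposite directions in the strains: all 3 BALB/c iNKT17 arrays lay above all BALB/c ROR- arrays, and both B6 iNKT17 arrays below both B6 ROR- arrays, a difference between the strains of 1.57 log2 units. No test of this difference is given, because the gene was chosen on its difference between the strains.

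A probe set that the annotation assigns to both Serpinb6a and 1110046J04Rik was left out of the comparisons and cannot be named as either gene. It read 4.88 at its lowest and 5.70 at its highest on the 7 type 17 arrays, against 3.89 to 4.43 on the 5 ROR- arrays.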

How the results depend on the processing

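Over 21 alternatives, 580 of the 588 recomputed member differences kept their sign. Signs were read from values rounded to 2 decimals, and a value that rounded to 0 counted as not kept. Serpinb6a in B6 iNKT17 minus gamma-delta 17 turned to -0.08 without gamma-delta 17 replicate 1 (range -0.08 to 0.27 when arrays were left out), and its strain difference of the cell-type difference to 0.0 without BALB/c ROR- replicate 2 (-0.14 to 0.00). The other values counted as not kept all lay within 0.03 of 0. In BALB/c minus B6 iNKT17 they were Serpinb1a (-0.03 without B6 iNKT17 replicate 2) and Serpinb6a (0.02 without B6 iNKT17 replicate 1). In BALB/c minus B6 ROR- it was Serpinb6a (-0.02 without BALB/c ROR- replicate 2). The Serpinb1a strain difference of the cell-type difference rounded to 0.0 without B6 ROR- replicate 1, with its sign unchanged. With quantile normalization 2 Serpinb6a differences were counted (0.03 in BALB/c minus B6 iNKT17 and 0.0 in B6 iNKT17 minus gamma-delta 17). Serpinb6b in B6 iNKT17 minus gamma-delta 17 passed without gamma-delta 17 replicate 1 (1.08; range 0.43 to 1.08), and its strain difference of the cell-type difference ranged from 1.47 to 1.68. Serpinb6a moved by more than its small replicate spread with centred arrays (B6 iNKT17 minus ROR-, 0.66) and under quantile normalization (BALB/c minus B6 in iNKT17, 0.03). Among the other clade B serpins the count in BALB/c iNKT17 against ROR- cells became 1, Serpinb1c, with array weights, and 0 to 1 when arrays were left out. The cause of these changes was not tested. Same-numbered arrays were not more alike on average than others (mean r of deviations 0.019 over 21 pairs and -0.011 over 36). The same-numbered r ran from -0.46 to 0.47, with 8 over 0.1, and was 0.465 between B6 ROR- and B6 iNKT17 arrays. Because deviations in a group of 2 arrays mirror each other and many pairs cross strains, this check cannot exclude pairing. The replicate block changed no member's call: it gave 0.75 for Serpinb6b in B6 iNKT17 minus gamma-delta 17 (adjusted p = 0.304) and 0.63 for the Serpinb9 strain difference (0.853). It ended the calls of Cstb in B6 iNKT17 cells (0.057) and Gzma in BALB/c (0.0627).

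Counts over all genes depended on single arrays. Leaving out 1 array gave 742 to 1150 called genes in BALB/c iNKT17 against ROR- (1161 with all), 492 to 1058 in B6 iNKT17 against ROR- (998), 530 to 1151 in gamma-delta 17 against ROR- (1003), 77 to 530 for the strains in iNKT17 (247; 549 with array weights), 68 to 259 in ROR- (203; 82 with only these arrays), 5 to 63 in B6 iNKT17 against gamma-delta 17 (28; 2 with only these arrays) and 0 to 15 for the strain difference of the cell-type difference (14; 6 with the replicate block).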
